A study of Homo sapiens with 95 samples.

Results

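Interferon-stimulated genes (ISGs) were described in AALE cells, an immortalized human bronchial epithelial line, across 8 genetically perturbed lines and 4 chemical treatments. The members were a list of 45 ISG symbols, marked by IFIT1, of which all 45 were present in the count files. A member was kept if its mean raw count over the 95 samples was at least 1, which held for 38 of the 45, against 14407 of the 27978 symbols in the files. The rule used neither genotype nor treatment. IFI27 was just inside this limit with a mean count of 1.32, and IFITM2 was just outside it with 0.495. The other members outside were MX2, RSAD2, XAF1, CMPK2, BST2 and IFITM1, whose mean counts ranged from 0.474 down to 0.0737.

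Each line carried 1 genotypic perturbation. FAT1 and CDKN2A were CRISPR knockouts, and their control, GFP, had received the Cas9-EGFP plasmid with no sgRNA. NRF2 (gene symbol NFE2L2), FGFR1, NRG1 and PIK3CA were overexpression lines, and their control, HCRED, had received an empty vector with the HcRed reporter. Each line was treated with DMSO (the vehicle), 24 µg/ml cigarette smoke condensate (CSC), 173 µM benzo[a]pyrene (BaP) or 490 µM of the tobacco nitrosamine NNK, with 3 replicates per group, except that the FGFR1 line under CSC had replicates 2 and 3 only. The labels give 1 line per genotype, so that genotype and line cannot be told apart. The study calls the samples of a group biological replicates, and p-values measured the spread between these samples within a line.

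ISGs are the genes that cells switch on when interferons bind their receptors. The receptors activate the kinases JAK1 and TYK2, which signal to ISGF3, a complex that includes STAT2 and IRF9 and binds the interferon-stimulated response element (ISRE). In airway epithelium the programme is best known as a defence against respiratory viruses. Its products include RNA-binding IFIT proteins that block translation of foreign RNA, OAS enzymes and MX GTPases that act on viral RNA and nucleocapsids, the RNA sensors DDX58 (RIG-I) and IFIH1 (MDA5), and the ubiquitin-like protein ISG15 with the enzymes that attach and remove it.

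The core of the ISRE, here the letters GAAA, 2 bases of any kind and GAAA again, was searched on both strands of RefSeq promoters (GRCh38.p14, 250 bases before to 50 bases after the start). Counted per gene, with a match in any of its promoters, it was found in 20 of the 31 members with a promoter in the table (64.5%) and in 1195 of all 27305 symbols (4.38%). Counted per promoter, it was in 1255 of 35116 (3.57%). The letters TTCNNNGAA, the core of the STAT dimer site, were found in 9 of 31 members (29%) and in 9.38% of all symbols (7.66% of promoters). Overlapping matches were each counted. Below, the 150 bases before the start are shown, 5′ to 3′ on the gene's strand, for 6 members that the results turn on, with the ISRE core on either strand in capitals (on the other strand it reads TTTC, 2 bases and TTTC). They belong to IFIT1 (chr10:89392473-89392622, plus strand), IFIT3 (chr10:89327847-89327996, plus strand), IFI44 (chr1:78649639-78649788, plus strand), HERC5 (chr4:88456969-88457118, plus strand), ISG15 (chr1:1013347-1013496, plus strand) and LGALS3BP (chr17:78979924-78980073, minus strand).
IFIT1: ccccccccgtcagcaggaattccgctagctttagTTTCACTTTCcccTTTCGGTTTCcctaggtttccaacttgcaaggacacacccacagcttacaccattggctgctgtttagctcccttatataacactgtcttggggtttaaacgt
IFIT3: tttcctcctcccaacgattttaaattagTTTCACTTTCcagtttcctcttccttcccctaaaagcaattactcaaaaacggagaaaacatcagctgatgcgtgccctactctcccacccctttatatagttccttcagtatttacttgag
IFI44: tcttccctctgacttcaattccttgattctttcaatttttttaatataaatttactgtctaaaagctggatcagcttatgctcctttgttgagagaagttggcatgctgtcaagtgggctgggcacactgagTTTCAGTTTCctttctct
HERC5: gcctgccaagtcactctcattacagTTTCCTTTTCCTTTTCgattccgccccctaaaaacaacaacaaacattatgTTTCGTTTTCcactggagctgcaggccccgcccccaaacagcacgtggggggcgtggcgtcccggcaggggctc
ISG15: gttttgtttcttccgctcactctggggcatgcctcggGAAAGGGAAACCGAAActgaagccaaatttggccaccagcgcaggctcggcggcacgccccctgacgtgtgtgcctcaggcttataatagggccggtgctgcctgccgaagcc
LGALS3BP: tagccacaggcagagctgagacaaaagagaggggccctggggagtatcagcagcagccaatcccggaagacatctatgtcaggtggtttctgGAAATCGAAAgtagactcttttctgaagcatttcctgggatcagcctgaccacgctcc

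Within the 150 bases shown, the IFIT1 promoter held 2 matches, which began 116 and 103 bases before the start, and the IFIT3 promoter held 1, at 122 bases. HERC5 had 3 matches, at 125, 119 and 74 bases. IFI44 and LGALS3BP had 1 each, at 18 and 58 bases, and ISG15 had 2 that overlapped, at 113 and 107 bases. IFIT3 and IFI44 each have another promoter in the table, which is not shown. A match is a run of letters and not a measured binding site.

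Sparse full length (SFL) libraries are shallow. Counted reads per sample ranged from 287446 to 2116383 (median 934235), and all kept members together held between 280 and 3340 of them, 0.0826% to 0.211%. Levels are given as TMM-normalized counts-per-million values (CPM). A count of 0 allowed a level of up to 1.42 to 10.4 CPM depending on the library (3 counts, covering counting error only). Differences are log2 fold changes with their standard error (SE) from limma-voom, and a gene was called if its Benjamini-Hochberg adjusted p over all genes tested was under 0.05. The perturbed genes moved with their labels (log2 fold change of FAT1 −1.81 and CDKN2A −1.16 in the knockouts, NFE2L2 2.73, FGFR1 4.54, NRG1 8.23 and PIK3CA 2.63 in the overexpression lines). They also differed in lines not labelled for them, for example FAT1 in CDKN2A against GFP (1.40) and in GFP against HCRED (−0.69). The airway basal markers KRT5 and TP63 were present in every line. Of the 6 leukocyte markers, CD3E and CLEC4C were among those at 0 in every sample, and the list summed to at most 9.49 CPM in any sample. In these bulk samples, fewer cells with a transcript and less RNA per cell cannot be told apart.

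In 8 of the 83 libraries of lines other than NRG1, NRG1 reads stood apart, between 66.8 and 373.7 CPM, whereas the others reached at most 42.2 CPM (median 19.6). They were FGFR1 DMSO replicates 2 and 3, FGFR1 BaP replicate 2, CDKN2A DMSO replicate 3, FAT1 CSC replicate 1 and all replicates of NRF2 CSC. The highest was 6.48% of the median of the NRG1 line (5764 CPM), and the source of these reads was not tested. For each line and chemical comparison that holds such libraries, the number of called members is also given without them. The share of all genes called was not taken in those fits, so these counts cannot be set against it.

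Among the members, levels per kilobase of exon varied widely. LGALS3BP, a secreted glycoprotein, was the highest with a median of 30.5 CPM per kb over all samples, followed by SAMD9 (24.5), the DNA sensor IFI16 (19.2), and the ubiquitin ligase DTX3L (18.1) with its partner PARP14 (16.6). IFIT1 ranked 25 of 38 with 1.85 CPM per kb, and IFI44L was the lowest with 0.141. In the line comparisons below, the differences of SAMD9, IFI16, DTX3L and PARP14 reached at most 0.71 on the log2 scale (SAMD9 in FAT1), whereas LGALS3BP reached −2.31 between the 2 controls.

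The question of the first comparison was what loss of FAT1, a large protocadherin, does to the programme. IFIT1 was at 0, 1.90 and 6.14 CPM in the GFP line (lowest, median and highest of 12 samples; 0 to 8 reads) and at 10.6, 27.7 and 47.2 CPM in the FAT1 line (8 to 59 reads). The 2 lines did not overlap, and the GFP line held no IFIT1 read in 4 samples. IFIT1 rose by 3.70 (SE 0.29, limma-voom adjusted p = 9.03e-19). IFI44, a cytoplasmic antiviral protein, went from 2.91, 3.86 and 11.4 to 36.7, 63.1 and 92.7 CPM (3.59, SE 0.21), and IFIT2 from 7.68, 14.7 and 17.1 to 30.8, 106 and 157 CPM (2.73, SE 0.16). Every FAT1 sample was above every GFP sample for both genes. IFIT3, the partner that stabilizes IFIT1, rose by 2.26 (SE 0.16), from 3.78, 12.8 and 24.4 to 30.8, 62.3 and 81.5 CPM. HERC5, the main ligase that attaches ISG15, was at 0, 4.03 and 10.2 CPM in GFP and at 14.1, 26.6 and 35.8 CPM in FAT1 (2.41, SE 0.23). LGALS3BP rose by 2.0 (SE 0.12) from a range of 14.4 to 29.1 CPM to a range of 57.1 to 110 CPM. IFI6, a mitochondrial and endoplasmic reticulum protein, and SAMD9L, a translation repressor, rose by 2.21 (SE 0.22) and 1.67 (SE 0.23), with overlapping samples.

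**Figure D1:**
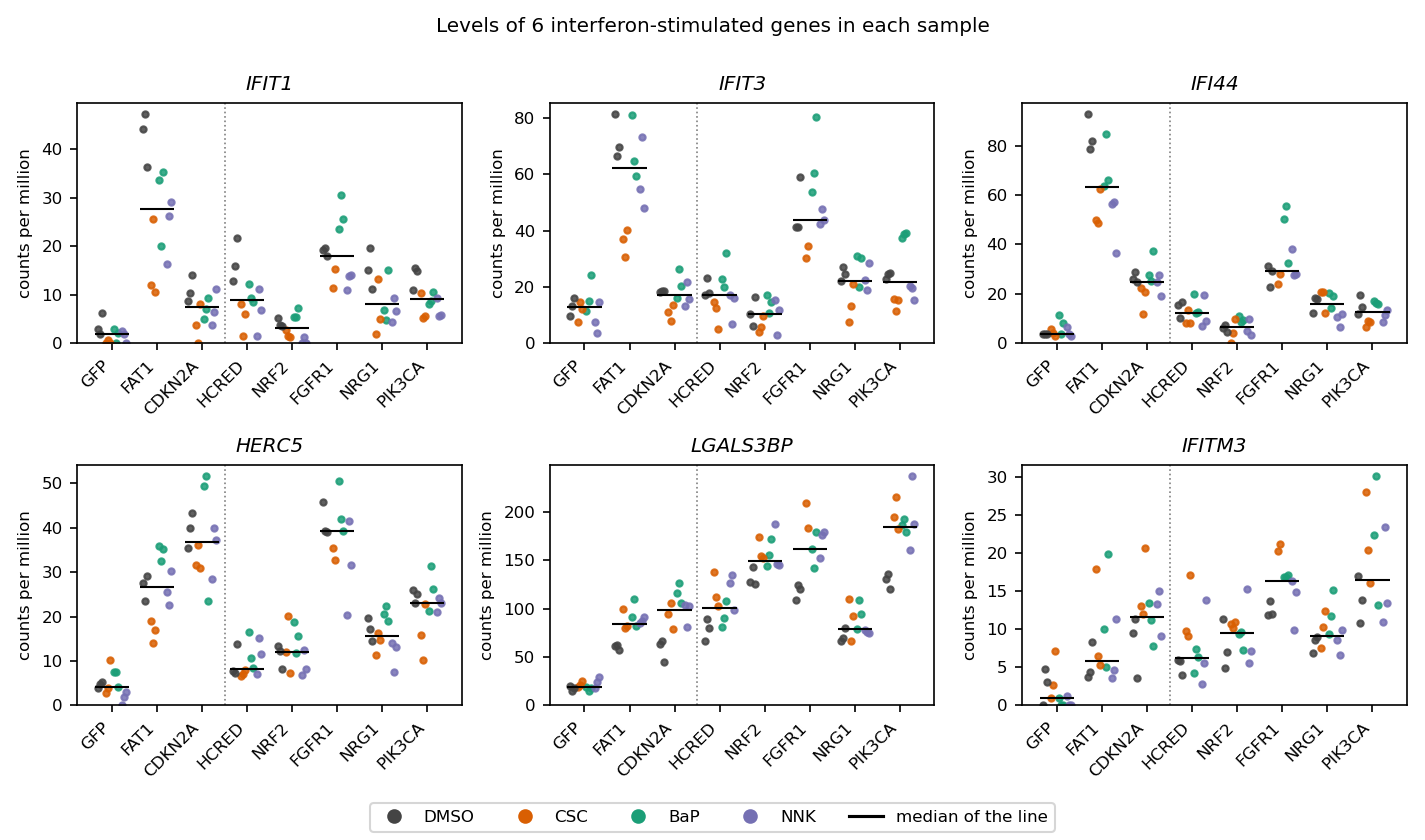
TMM-normalized CPM of IFIT1, IFIT3, IFI44, HERC5, LGALS3BP and IFITM3 in each sample (points, coloured by treatment) of the 8 lines, with the median of each line as a bar; the dotted line divides the lines compared with GFP from those compared with HCRED. IFIT1 lies between 10.6 and 47.2 CPM in FAT1 and at or below 6.14 CPM in GFP, and LGALS3BP is at or below 29.1 CPM in GFP only.

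Altogether 25 of 37 members tested were higher and 1 was lower in FAT1, where 48.9% of all genes tested were called (25% higher, 23.9% lower). The median log2 fold change was 1.19 over the members and 0.03 over all genes, and 0.71 over the 23 members that averaged 10 or more reads in these samples (15 higher, 1 lower). No share of all genes was taken at that limit, so the counts of these 23 have no share beside them. In 11 members every FAT1 sample exceeded every GFP sample, which held for 1.53% of all genes. None lay wholly below GFP, as 2.65% of all genes did. The 11 were IFIT1, IFIT2, IFIT3, IFIT5, HERC5, IFI44, IFI44L, LGALS3BP, OASL, SAMD9 and TRIM22. Of these, IFI44L, OASL and TRIM22 averaged only 2.93, 3.82 and 3.12 reads over all samples. They may have passed the limit on mean counts through the FAT1 line, so the count of 11 leans partly on them. All 4 IFIT genes and all 5 genes of ISG15 conjugation (ISG15, HERC5, HERC6, USP18, UBE2L6) rose, as did all 5 tested genes of the IFI group. The response was uneven elsewhere. Of the OAS family only OASL was called, none of PARP9, PARP14 and DTX3L was, and the transcription factors rose little (STAT2 0.22, IRF1 0.35, IRF7 0.47). IFI16 fell by 0.31. IFIT1, IFI44 and IFIT2 were called in each of the 4 treatments taken alone, with IFIT1 between 3.30 and 4.56. Leaving out FAT1 CSC replicate 1 gave 26 called members, with no share of all genes taken. Beside this, 5 of 8 airway basal markers fell in FAT1, led by KRT14 (−3.13), and EPCAM rose (0.45). The 8 markers summed to 4019 to 6127 CPM in FAT1 and to 5964 to 7621 CPM in GFP, and the part of this in the result was not tested.

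CDKN2A encodes the cell cycle inhibitors p16INK4a and p14ARF. In its knockout 18 of 35 members were higher and 7 lower than in GFP, where 57.6% of all genes were called (29.4% higher, 28.3% lower), and the median member difference was 0.37 against 0.0014 over all genes. Of the 21 members that averaged 10 or more reads in these samples, 9 were higher and 5 lower, and the median was 0.23. The 57.6% is for genes averaging more than 1 read, and no share was taken at 10 or more. HERC5 had the largest difference. It was at 23.5, 36.7 and 51.6 CPM (lowest, median, highest of 12), above every GFP sample, and rose by 2.98 (SE 0.24, limma-voom adjusted p = 2.36e-17). HERC6, its paralog, went from 0, 8.11 and 17.0 to 26.1, 35.3 and 42.1 CPM, again with no overlap (1.97, SE 0.19). IFI44 rose by 2.16 (SE 0.21), to a range of 12 to 37.5 CPM, and LGALS3BP by 2.10 (SE 0.13), to a range of 45.1 to 127 CPM. With PARP14 these were the 5 members whose samples did not overlap, all of them higher, which held for 4.63% of all genes (3.97% were wholly lower). MX1, a GTPase that traps viral nucleocapsids, rose by 1.81 (SE 0.24) and IFI6 by 1.36 (SE 0.25).

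Of the 4 IFIT genes 3 rose. IFIT1 was at 0, 7.5 and 14.1 CPM and rose by 1.73 (SE 0.32), and it was called in 2 of the 4 treatments taken alone. IFIT5 rose by 0.48 (SE 0.15) and IFIT3 by 0.47 (SE 0.18), whereas IFIT2 differed by 0.22 and was not called (limma-voom adjusted p = 0.28). The 7 members that fell included the ISGF3 subunit STAT2 (−0.79, SE 0.09; 41.0 to 71.3 CPM against 69.8 to 125 CPM in GFP), IRF1 (−0.62), SAMD9 (−0.66), the sensor DDX58 (−0.48), OAS2 (−1.0), OAS3 (−0.28) and EPSTI1 (−0.55). STAT2 was called lower in each of the 4 treatments alone. Of the 8 airway basal markers 5 fell and 2 rose in CDKN2A, with a summed level of 4308 to 6342 CPM, and their part in the result was not tested. FAT1 and CDKN2A share the GFP samples, and the difference between the knockouts was not tested. Without CDKN2A DMSO replicate 3, 24 members were called, with no share of all genes taken.

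The control lines themselves differed, which bears on every knockout value. GFP was lower than HCRED in 17 of 36 members and higher in 3, where 45% of all genes were called (22.2% higher, 22.8% lower). Of the 18 members averaging 10 or more reads there, 7 were lower and 3 higher, with no share of all genes taken at that limit. LGALS3BP was between 14.4 and 29.1 CPM in GFP and between 66.2 and 138 CPM in HCRED, with no overlap (−2.31, SE 0.12, limma-voom adjusted p = 4.57e-30). It was the only member without overlap, against 1.82% of all genes. IFIT1 was at 1.41, 8.96 and 21.8 CPM in HCRED and lower in GFP (−2.09, SE 0.32), with overlap. IFI44 (−1.23), HERC6 (−1.23), IFI6 (−1.13), HERC5 (−1.03), IFIT5 (−0.75) and SP110 (−0.48) were also lower in GFP. IFI16, STAT2 and IRF1 were higher in GFP by 0.32 to 0.36. Of the 8 airway basal markers, 3 were higher and 4 lower in GFP than in HCRED, and their part in the result was not tested. The summed level of all kept members was lowest in GFP (813.9, 1056 and 1138 CPM), had similar medians in CDKN2A (1223 CPM), HCRED (1212 CPM) and NRG1 (1209 CPM), and highest in FAT1 (1463, 1677 and 1971 CPM) and FGFR1 (1548, 1771 and 2067 CPM). For IFIT1 and LGALS3BP the CDKN2A medians (7.5 and 98.9 CPM) stood beside those of HCRED (8.96 and 101 CPM), whereas HERC5 was at 23.5 to 51.6 CPM in CDKN2A and at 6.54 to 16.5 CPM in HCRED. CDKN2A and HCRED were not tested against each other.

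FGFR1 is a receptor tyrosine kinase for fibroblast growth factors. In the line that overexpressed it, 28 of 38 members were higher than in HCRED and none was lower by limma-voom (0 also at an unadjusted p under 0.05, by edgeR and by DESeq2), while 13.5% of all genes were called (7.25% higher, 6.23% lower). The median was 0.66 over the members and 0.0029 over all genes. Of the 26 members that averaged 10 or more reads in these samples, 22 were higher and 0 lower, and the median was 0.68. No share of all genes was taken at that limit. HERC5 went from 6.54, 8.29 and 16.5 CPM in HCRED to 20.5, 39.3 and 50.5 CPM in the 11 FGFR1 samples, without overlap (1.88, SE 0.16, limma-voom adjusted p = 4.32e-15). MX1 rose from 2.13, 7.05 and 13.0 to 10.5, 25.7 and 37.1 CPM (1.75, SE 0.21). IFIT3 rose by 1.52 (SE 0.14) and IFIT2 by 1.32 (SE 0.14), and both were called in each of the 4 treatments alone. IFI44 rose by 1.35 (SE 0.16), with every FGFR1 sample (22.6 to 55.6 CPM) above every HCRED sample (7.17 to 20.1 CPM). SAMD9L rose by 1.41 (SE 0.19), IFI6 by 1.19 (SE 0.18) and IFIT1 by 1.02 (SE 0.21), from 1.41, 8.96 and 21.8 to 10.9, 18.1 and 30.6 CPM.

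By role, the rise was spread over the groups. All 4 IFIT genes, 3 of 4 OAS genes, 3 of 4 sensors, all of PARP9, PARP14 and DTX3L (0.32 to 0.49), and 5 of 6 IFI genes rose. The 6 IFI genes include IFI27 and IFI44L, which averaged only 1.32 and 2.93 reads over all samples. They may have passed the limit on mean counts through the FGFR1 line, so the counts lean partly on them. STAT2 (0.25) and IRF1 (0.74) rose, and IRF9 (0.20) and IRF7 (0.04) were not called. HERC5, IFI44 and PARP14 were the 3 members without overlap, against 0.223% of all genes. Without the 3 FGFR1 libraries that held NRG1 reads, 23 members were called, with no share of all genes taken. In FGFR1, 6 of 8 airway basal markers fell, including KRT14 (−1.05), and 1 rose. Their summed level was 5532 to 8473 CPM against 7465 to 10112 CPM in HCRED, and the part of this in the result was not tested.

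NRF2 is the transcription factor of the oxidative stress response. Its line had 7 members lower and 2 higher than HCRED of 36, where 21.6% of all genes were called (10.4% higher, 11.2% lower). The 25% of members called was near that share, though more of them were lower than higher. Of the 4 IFIT genes 3 fell. IFIT1 was at 0, 3.07 and 7.25 CPM against 1.41, 8.96 and 21.8 CPM in HCRED (−1.35, SE 0.29, limma-voom adjusted p = 0.000225), IFIT3 was at 2.78, 10.5 and 17.2 CPM (−0.68, SE 0.20) and IFIT2 at 4.33, 12.4 and 19.7 CPM (−0.62, SE 0.17). IFI44 (−0.99, SE 0.24), IFI16 (−0.46, SE 0.08), SAMD9 (−0.32, SE 0.06) and PARP14 (−0.22, SE 0.06) fell as well. LGALS3BP rose by 0.61 (SE 0.07), to 125, 149 and 188 CPM, and TRIM22, chosen here after its values were seen because its mean count was only 3.12, rose by 1.1. No member was free of overlap between the lines, where 0.358% of all genes lay wholly above HCRED and 0.492% wholly below. IFIT1 was lower in each of the 4 treatments but called in 1 of them. Without the 3 NRF2 CSC libraries 9 members were called, with no share of all genes taken. Of the 8 airway basal markers, 3 rose and 3 fell in NRF2, and their part in the result was not tested.

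PIK3CA encodes a catalytic subunit of PI3K. In its line 17 of 38 members were higher and 2 lower, where 27.8% of all genes were called (14% higher, 13.8% lower), with a median of 0.32. HERC5 rose by 1.14 (SE 0.17), to 10.2, 23.0 and 31.3 CPM, and LGALS3BP by 0.80 (SE 0.07), to 120, 185 and 238 CPM. MX1 (0.69, SE 0.23), IFIT3 (0.57, SE 0.14), HERC6 (0.44, SE 0.13), DDX58 (0.43, SE 0.10), IRF1 (0.38, SE 0.13) and IFIH1 (0.33, SE 0.13) rose as well, all with overlapping samples. Of all genes, 0.889% lay wholly above and 0.695% wholly below HCRED. With 1 sample left out in turn, IFIH1 was called in 11 of 24 fits and MX1 in 20. SAMD9 (−0.25) and IFI16 (−0.18) fell. In PIK3CA 7 of 8 airway basal markers fell and EPCAM rose, with a summed level of 4963 to 5919 CPM against 7465 to 10112 CPM in HCRED, and their part in the result was not tested. IFIT1 differed from HCRED by 0.04 (SE 0.22, limma-voom adjusted p = 0.927; 5.10, 9.08 and 15.6 CPM). NRG1, a secreted ligand of ERBB receptors, had the fewest called members of the 7 line comparisons. HERC5 rose by 0.68 (SE 0.18, limma-voom adjusted p = 0.00777) and LGALS3BP fell by 0.28 (SE 0.09), which was 1 higher and 1 lower of 38 where 10.8% of all genes were called (5.86% higher, 4.91% lower). IFIT1 differed there by −0.07 (SE 0.24; 1.87, 8.13 and 19.6 CPM). In NRG1 6 of 8 airway basal markers fell and 0 rose, with a summed level of 5116 to 6382 CPM, and their part in the result was not tested. The 4 overexpression lines share the HCRED samples, so their values stand side by side and were not compared with each other.

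**Figure D2:**
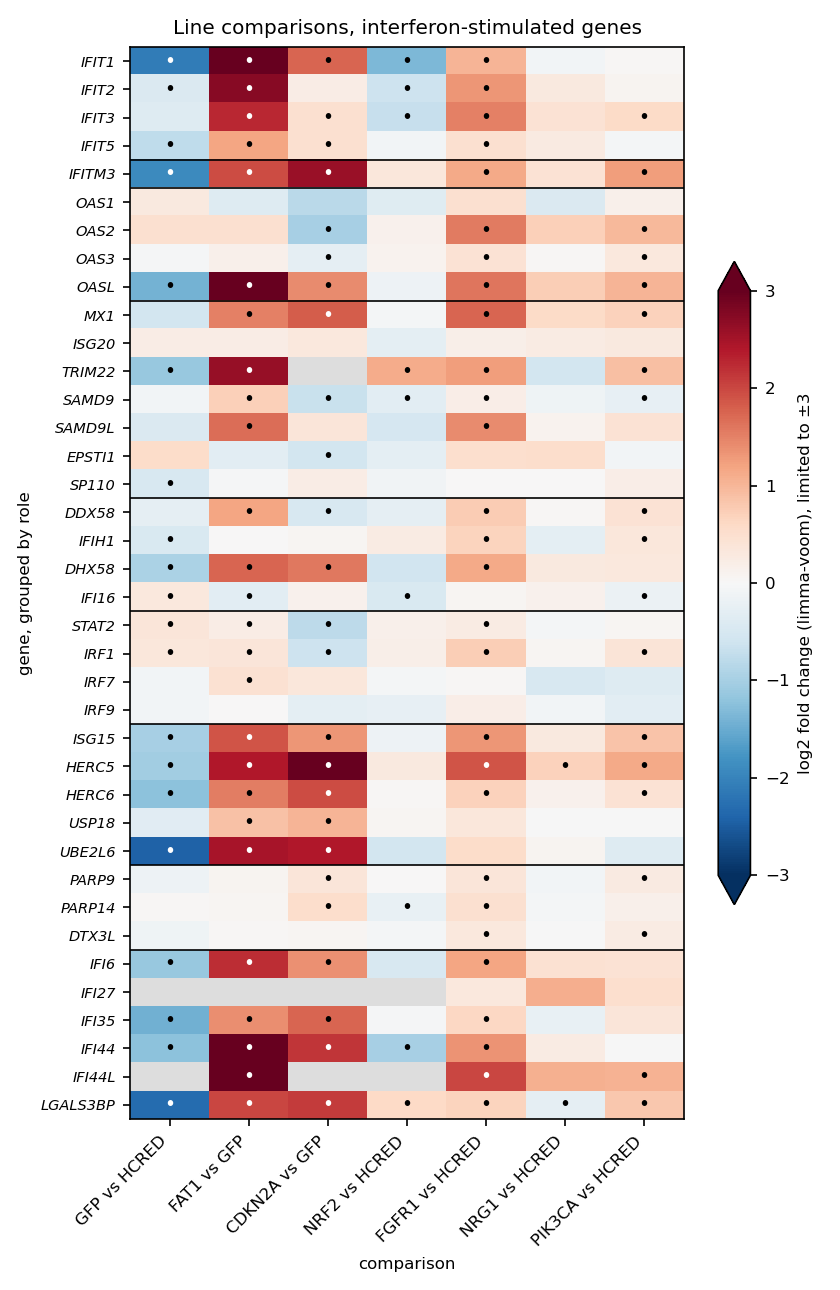
Log2 fold change of the 38 members (rows, grouped by role) in the 7 line comparisons (columns), with colours limited to ±3, a dot where the limma-voom adjusted p was under 0.05, and grey where a member was not tested. The FAT1 column has 25 dots among higher members and the FGFR1 column 28 with none lower, while the NRG1 column has 2 dots in all.

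Members that were called and differed by at least 2-fold numbered 20 in FAT1, 14 in CDKN2A and 15 in FGFR1, all higher, against 8.29%, 13.6% and 1.78% of all genes tested. The FAT1 and CDKN2A counts include members with few reads, named below, some of which may have passed the limit on mean counts through those lines. The FGFR1 count also includes members that averaged under 10 reads over all samples, among them ISG15 and IFITM3. GFP against HCRED had 11, all lower (6.65% of all genes). PIK3CA had 4, all higher (3.95%), NRF2 had 1 higher and 1 lower (2.65%), and NRG1 had 0 (1.41%).

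Across lines, members with few reads in the controls showed some of the largest differences, and they were singled out here after their values were seen. They were OASL (3.29), IFI44L (3.40), TRIM22 (2.62) and UBE2L6 (2.47) in FAT1, and IFITM3 (2.58) and UBE2L6 (2.40) in CDKN2A, with mean counts over all samples between 2.93 and 9.72. A gene near the limit on mean counts could pass it through the line in which it was high, so these values describe single genes and not the group. IFITM3 shares long stretches with IFITM1 and IFITM2, and reads that fit several copies could be lost or split between them, so its level is uncertain. OAS and IFIT genes lie in clusters of related copies as well. The IFIT genes are neighbours on chromosome 10 (IFIT2 at chr10:91043451, IFIT3 at 91087064, IFIT1 at 91152303 and IFIT5 at 91174325, start positions on GRCh37).

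Members moved together over the 32 groups of line and treatment. Of the 24 members with a mean count of at least 10, the 276 pairs had a median Pearson r of 0.366 between group means, and 33.3% exceeded 0.5, whereas the median over 10062 genes was 0.0022. Between replicates within a group (residuals of 95 samples) the median r was 0.0244, close to the 0.0059 of all genes. Genes and groups share lines and libraries, so these are descriptions. Over the 32 group means, the members whose pattern was most like that of IFIT1 were IFIT3 (r = 0.887), IFI44 (0.862), SAMD9L (0.838), IFIT2 (0.833) and IFIT5 (0.818).

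CSC, a mixture of the particulate constituents of smoke, was compared with DMSO over all 8 lines. The IFIT genes fell. IFIT1 was at 1.92, 14.5 and 47.2 CPM in the 24 DMSO samples and at 0, 5.10 and 25.7 CPM in the 23 CSC samples, a change of −1.31 (SE 0.16, limma-voom adjusted p = 2.80e-11). The ranges overlap because lines differ. Within a line, every CSC sample was below every DMSO sample in 7 of 8 lines, all but NRG1. This held in at least 7 of 8 lines for 3.76% of all genes. In FAT1 the 3 DMSO values of IFIT1 were 44.1, 47.2 and 36.4 CPM and the CSC values 11.9, 25.7 and 10.6 CPM. In FGFR1 they were 19.3, 19.7 and 18.1 CPM against 11.4 and 15.4 CPM. In HCRED they were 12.9, 15.9 and 21.8 CPM against 8.18, 1.41 and 6.04 CPM. NRG1 overlapped, with 15.1, 19.6 and 11.1 CPM against 1.87, 13.3 and 4.94 CPM. IFIT2 fell by 0.97 (SE 0.11), from 9.72, 23.7 and 117 to 2.55, 12.3 and 61.4 CPM. IFIT3 fell by 0.71 (SE 0.10), from 6.14, 22.4 and 81.5 to 3.99, 13.3 and 40.2 CPM. All 3 genes were lower in 8 of 8 lines.

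**Figure D3:**
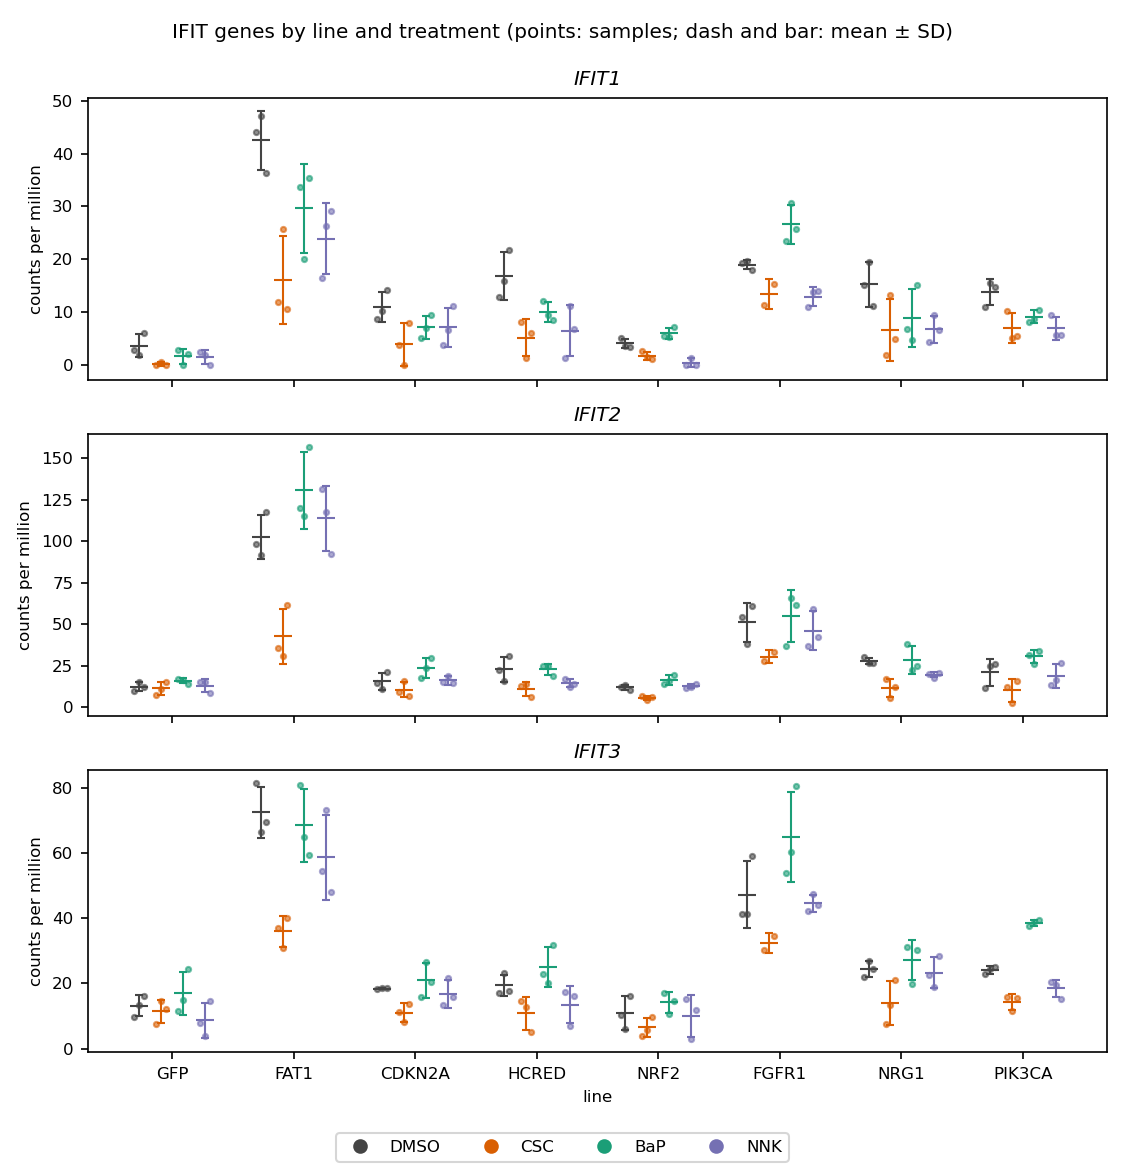
TMM-normalized CPM of IFIT1, IFIT2 and IFIT3 in the 8 lines under DMSO, CSC, BaP and NNK (points are replicates, bars the mean ± SD of 3, or of 2 for FGFR1 under CSC). Under CSC the IFIT1 mean is below that of DMSO in every line, for example 16.1 against 42.6 CPM in FAT1.

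Other members that fell under CSC were the sensor IFIH1 (−0.62, SE 0.09), SAMD9L (−0.76, SE 0.14) and SAMD9 (−0.48, SE 0.04). SAMD9 went from 124, 208 and 358 to 78.2, 154 and 286 CPM and was called lower in each of the 8 lines alone. IRF7, the inducible activator of interferon genes, rose by 0.76 (SE 0.12), from 3.96, 11.3 and 18.0 to 9.25, 20.4 and 32.2 CPM, and LGALS3BP by 0.51 (SE 0.05). In all, 6 of 38 members were higher and 19 lower, where 55.6% of all genes were called (27.2% higher, 28.4% lower). The median was −0.22 over the members and −0.0081 over all genes. IFIH1, IFIT1, IFIT2, IFIT3 and SAMD9 lay wholly below DMSO in at least 5 of the 8 lines, as did 8.96% of all genes, and LGALS3BP wholly above, as did 9.42%.

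Marker genes of cell types moved under the chemicals as well. Of 8 airway basal markers, 5 fell and 2 rose under CSC, 6 fell and 2 rose under BaP, and 2 fell and 4 rose under NNK. Their summed level had a median of 6213 CPM in DMSO, 5587 in CSC, 5908 in BaP and 6739 in NNK, with overlapping ranges. The 4 fibroblast markers summed to 8.21 to 34.9 CPM in DMSO (median 16.9) and had medians of 34.1 CPM in CSC, 27.8 in BaP and 32.1 in NNK. COL1A1 rose under each chemical, DCN under BaP and NNK, and the leukocyte marker CD14 under CSC and BaP. The part of these markers in the member counts was not tested.

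The chemical differences ran with the base composition of the transcripts, which stands beside each of these counts. Across the 38 members, the Spearman correlation of log2 fold change with exon GC content was 0.756 for CSC, 0.767 for BaP and 0.788 for NNK, and across all genes it was 0.691, 0.715 and 0.757. In the line comparisons it was between −0.199 and 0.204 across all genes. LGALS3BP (61% GC) and ISG15 (63.4%) are GC-rich, and IFIT1 (42.2%) and SAMD9 (36%) are not. After the trend with GC content and exon length was removed per sample, 1 member was higher and 9 were lower under CSC, where 33.9% of all genes were called (15.8% higher, 18.1% lower). The 26.3% of members called was below that share. IFIT1 (−1.13), IFIT2 (−0.80), IFIT3 (−0.57), SAMD9L (−0.50), IFIH1 (−0.38) and SAMD9 (−0.19) were among those still called, and IRF7 (0.14) and LGALS3BP (0.11) were not. The part of base composition in the single values was not tested further.

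**Figure D4:**
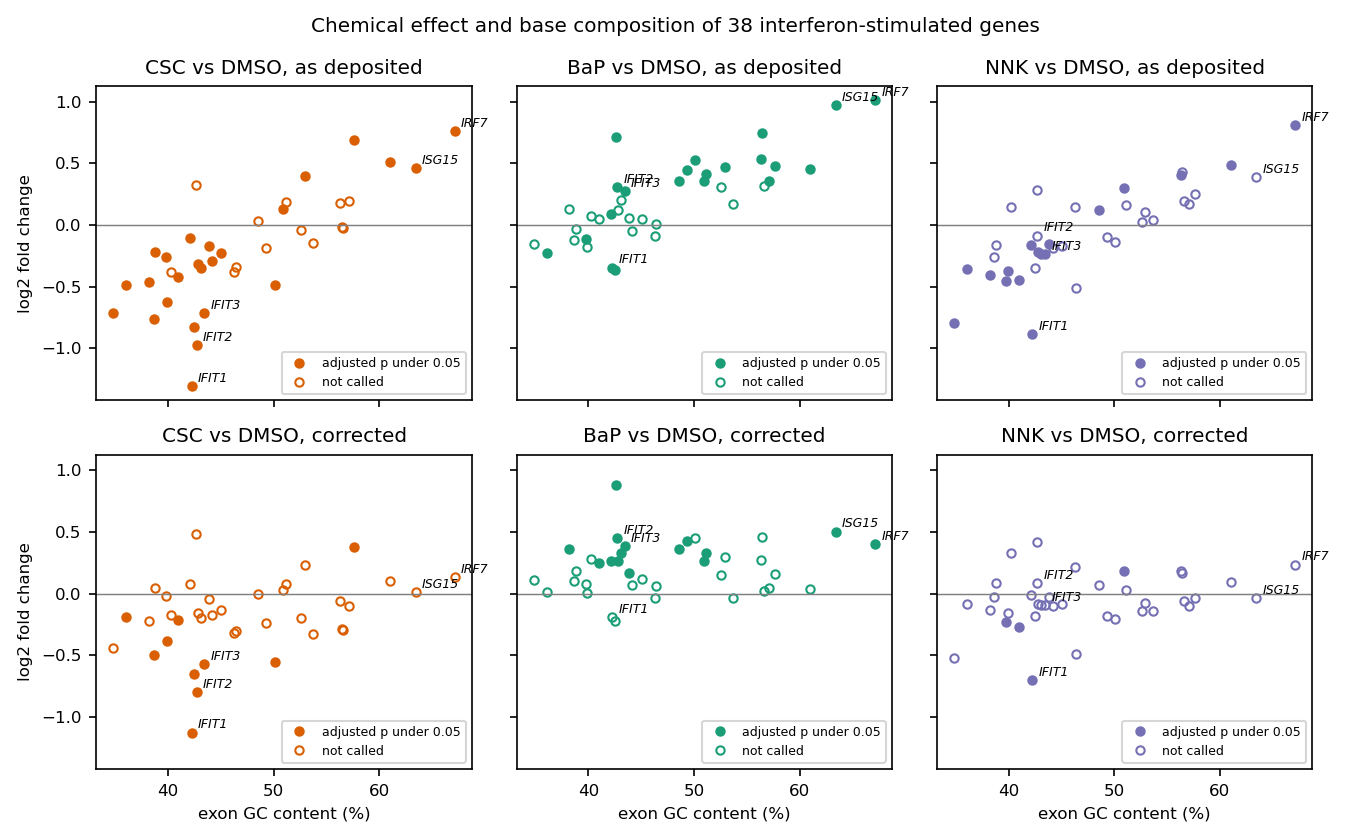
Log2 fold change of each member against DMSO (vertical axis) against its exon GC content in percent (horizontal axis) for CSC, BaP and NNK, as deposited (top) and after removal of the trend with GC content and exon length (bottom), with filled points where the adjusted p was under 0.05. The correlation over members falls from 0.756, 0.767 and 0.788 in the top row to 0.347, 0.181 and 0.284 in the bottom row.

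BaP, a polycyclic aromatic hydrocarbon of smoke, had 17 of 38 members higher and 4 lower, where 51.4% of all genes were called (26.4% higher, 25.1% lower). The 55.3% of members called was near that share, though more of them were higher than lower. IRF7 rose by 1.01 (SE 0.12, limma-voom adjusted p = 6.07e-12), from 3.96, 11.3 and 18.0 to 11.2, 23.1 and 49.96 CPM, and was wholly above DMSO in 7 of 8 lines. Of all genes, 2.18% lay wholly above DMSO in at least 7 of 8 lines. OAS3, an enzyme that makes the activator of RNase L, rose by 0.36 (SE 0.05), from 68.3, 93.6 and 131 to 87.3, 125 and 182 CPM. STAT2 rose by 0.36 (SE 0.06), IRF1 by 0.42 (SE 0.09), MX1 by 0.45 (SE 0.14), IFI6 by 0.53 (SE 0.13) and LGALS3BP by 0.45 (SE 0.05). IRF7, LGALS3BP and OAS3 were wholly above DMSO in at least 5 lines, as were 6.65% of all genes. The IFIT genes split, since IFIT1 fell by 0.34 (SE 0.13) while IFIT2 (0.31) and IFIT3 (0.27) rose. After the GC and length trend was removed, 15 members were called, each higher, where 25.2% of all genes were called (11.3% higher, 13.9% lower). IRF7 (0.40), MX1 (0.43), IRF1 (0.33), OAS3 (0.36), STAT2 (0.27), IFIT2 (0.45) and IFIT3 (0.39) were still called, and IFIT1 (−0.19), IFI6 (0.28) and LGALS3BP (0.04) were not.

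NNK, a nicotine-derived nitrosamine, gave 5 higher and 12 lower of 38 members, where 51.7% of all genes were called (25.9% higher, 25.8% lower). The 44.7% of members called was below that share, so the number called does not set the members apart from other genes. IFIT1 fell by 0.88 (SE 0.14, limma-voom adjusted p = 7.81e-08), to 0, 6.55 and 29.1 CPM, was lower in 8 of 8 lines and wholly below DMSO in 6. IFIT2 differed by −0.09 and was not called, and IFIT3 fell by 0.23. The sensors IFI16 (−0.45, SE 0.05), DDX58 (−0.45, SE 0.08) and IFIH1 (−0.37, SE 0.10) fell, as did IFI44 (−0.40, SE 0.10). IFI16 went from 75.5, 111 and 166 to 44, 85.5 and 121 CPM. IRF7 (0.81, SE 0.12), LGALS3BP (0.49, SE 0.05) and IFI6 (0.41, SE 0.14) rose. IFI16, IFIT1 and SAMD9 were wholly below DMSO in at least 5 lines, as were 6.39% of all genes, and IRF7 and LGALS3BP wholly above, as were 6.71%. With the GC and length trend removed only 1 member was higher and 3 were lower, IFIT1 (−0.70), IFI16 (−0.23) and DDX58 (−0.27), where 17.7% of all genes were called (8.1% higher, 9.55% lower). The share of members called was then 10.5%, again below that of all genes. The 3 chemicals share the DMSO samples and were not compared with each other. Without the libraries that held NRG1 reads, 22 members were called for CSC, 18 for BaP and 18 for NNK. No share of all genes was taken in these fits.

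Whether a chemical acted differently in different lines was tested with limma-voom F tests of the interaction. No member passed for any chemical, where 1.28% of all genes passed for CSC, 0.25% for BaP and 0.174% for NNK. At an unadjusted p under 0.05 there were 3, 1 and 1 members, and edgeR and DESeq2 also gave 0. The smallest adjusted p of a member was 0.222, for OAS3 under CSC. The change of IFIT1 under CSC ranged from −2.66 to −0.43 on the log2 scale over the lines, and these values were not shown to differ.

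Genes upstream of the programme were counted by role. Of 12 interferon ligand genes only IFNE and IFNK had enough reads to test. Both fell in CDKN2A (IFNE −0.61, IFNK −1.22) and IFNE fell in FAT1 (−0.63), and neither was called in FGFR1. IFNE and IFNK averaged only 5.93 and 1.72 reads over all samples. With the GC and length trend removed, 0 of the 2 were called lower in FAT1 and 1 in CDKN2A. IFNB1 had 1 read in 1 NRG1 sample and none in the others. Among 9 adaptors and kinases of the sensor pathways, 6 rose in FAT1, led by TMEM173 (STING, 1.07) and MYD88 (0.50), and 2 in FGFR1, including TRIM25 (0.20), while 1 rose and 2 fell in CDKN2A. TMEM173 also rose in CDKN2A (1.07) and PIK3CA (0.90) and fell in GFP against HCRED (−0.59). Of 6 negative regulators, 3 rose and 1 fell in FAT1, including PTPN6 (0.81), 2 rose and 2 fell in CDKN2A, and none was called in FGFR1. Of all genes, 25% were higher and 23.9% lower in FAT1, 29.4% and 28.3% in CDKN2A, and 7.25% and 6.23% in FGFR1. These short lists were not tested against those shares.

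A wider list of 42 interferon-induced genes that are not members was counted as well. Of the 31 tested in FGFR1, 14 rose and none fell, including APOL6 (1.37), DDX60 (1.15), TRANK1 (1.01) and PARP10 (0.82). In FAT1, 15 rose and 4 fell of 31, with PARP10 (1.73) and DDX60 (1.44) at the top and LAP3 (−1.10), an aminopeptidase, at the bottom. CDKN2A had 13 higher and 7 lower of 32, again with PARP10 (1.92) and DDX60 (1.40) among the higher. PIK3CA had 16 higher and 2 lower of 31, GFP against HCRED 5 and 15, NRF2 5 and 5, and NRG1 2 and 0. Of all genes, 13.5% were called in FGFR1, 48.9% in FAT1, 57.6% in CDKN2A, 27.8% in PIK3CA, 45% in GFP against HCRED, 21.6% in NRF2 and 10.8% in NRG1, so that the share of the list called in CDKN2A (20 of 32) was near that of all genes. PSMB8, PSMB9, TAP1 and IDO1 were listed at 0 in every sample. PSMB8, PSMB9 and TAP1 are neighbours on chromosome 6 (starts at chr6:32808494, 32811913 and 32812986 on GRCh37). Whether their reads were lost in alignment or counting was not tested, so these zeros do not show that the genes were silent.

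Finally, the calls were set against the promoter letters. In FGFR1, 17 of 20 members with the ISRE core letters in the promoter rose, and 6 of 11 members without it. In FAT1 12 of 19 with the letters rose, and 7 of 11 without. CDKN2A had 12 higher and 3 lower of 18 with the letters, and 3 higher and 3 lower of 11 without. Under CSC 12 of 20 with the letters fell and 4 rose, against 5 and 1 of 11 without. These counts describe the members and carry no test.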

How the data were processed

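RNA from 95 AALE samples was sequenced as sparse full length (SFL) libraries, single-end on an Illumina NextSeq. The authors trimmed reads with cutadapt 1.12, checked them with FastQC 0.11.5, aligned them with STAR 2.5.2b and counted them per hg19 RefSeq gene with featureCounts. The values are the raw counts they deposited, 1 table per sample. The strand setting is not given in the sources used here, so overlapping antisense genes cannot be told apart, and no molecular identifiers are stated, so intervals cover counting error only.

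Groups came from the sample titles. Differences were fitted with limma-voom (limma 3.58.1, edgeR 4.0.16, R 4.3.3) on TMM-normalized counts of genes whose counts averaged more than 1 over the samples entering each fit. Each line was compared with its control with treatment as a covariate, each chemical with DMSO with line as a covariate, and interactions by F tests, with Benjamini-Hochberg adjustment over all genes tested. Other settings tried were DESeq2 1.42.0, the edgeR quasi-likelihood test, other scaling and filters, single strata, a replicate block, samples left out in turn, and a lowess correction (span 0.3) for GC content and exon length from the GRCh37 annotation, which matched 25095 of 27978 symbols. Simulated counts with known changes were also put through the same fits, and those results are not given here. No pair of replicates held identical files.

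The members, lists and tests were chosen with earlier results of these data known. Values were printed for IFIT1 and, per comparison, for up to 8 members with the largest difference among those called that averaged 10 or more reads over all samples, and for genes of the other lists that did the same. Some values outside this rule were printed to complete a group. They include OAS2 and EPSTI1 among the members that fell in CDKN2A, and uncalled transcription factors in FGFR1. IFNE and IFNK were printed as the only ligands tested. Members without a promoter in the table were IRF7, IFIT2, USP18, DHX58, OASL, OAS2 and TRIM22. The counts over receptor and kinase genes are not reported here.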

Additional observations from a re-analysis of the deposited data

How the results depend on the processing

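Under edgeR, DESeq2, DESeq2 size factors and a filter that kept any gene with a read, each comparison had its larger number of called members in the same direction as in the report, except NRG1. NRG1 had 2 higher and 1 lower by edgeR and 2 higher and 0 lower with any gene with a read, where LGALS3BP missed the threshold (−0.28, limma-voom adjusted p = 0.0536), as did IFIH1 in PIK3CA (0.34, limma-voom adjusted p = 0.07). With a mean count of at least 10, fewer members were tested and 16, 14 and 10 were called for FAT1, CDKN2A and GFP against HCRED. The share of all genes called was not taken at that limit. With GC content and exon length corrected, 10 were called for CSC and 4 for NNK. With all 95 samples in 1 model 4 were called for NRG1. The share of all genes called was not taken in that model, nor under edgeR, DESeq2, DESeq2 size factors and the any-read filter. Single strata hold fewer samples and called fewer members. For DMSO, CSC, BaP and NNK alone the counts were 15, 16, 14 and 14 for CDKN2A, 4, 1, 3 and 0 for NRF2, 12, 11, 16 and 9 for FGFR1, 0, 0, 0 and 1 for NRG1, 4, 6, 8 and 1 for PIK3CA, and 8, 9, 8 and 3 for GFP against HCRED, and for FAT1 under NNK alone 17. Of all genes, 37.2%, 32.3%, 32.1% and 28.1% were called there for CDKN2A, and 7.16%, 4.87%, 7.25% and 3.91% for NRF2. The shares were 1.86%, 2.83%, 1.42% and 2.47% for FGFR1, and 2.04%, 2.31%, 1.52% and 1.85% for NRG1. They were 8.6%, 10.3%, 7.12% and 6.62% for PIK3CA, 17.7%, 22%, 15% and 12.5% for GFP against HCRED, and 17.2% for FAT1 under NNK. For GFP, FAT1, CDKN2A, HCRED, NRF2, FGFR1, NRG1 and PIK3CA alone the member counts were 3, 8, 5, 9, 1, 5, 3 and 11 for CSC, 2, 5, 4, 3, 0, 3, 0 and 5 for BaP, and 2, 6, 2, 6, 1, 2, 1 and 3 for NNK. In the same order, 25%, 12.7%, 11.2%, 23.8%, 9.1%, 11.7%, 13.9% and 22.6% of all genes were called for CSC. For BaP the shares were 11%, 15.1%, 18.6%, 4.72%, 8.51%, 5.43%, 7.81% and 10.9%. For NNK they were 18.2%, 10.2%, 5.42%, 16.4%, 6.9%, 7.84%, 6.43% and 9.74%. Between 33 and 38 members were tested in each stratum. Leaving out 1 sample in turn gave 26 to 27 for FAT1, 23 to 26 for CDKN2A, 9 to 10 for NRF2, 26 to 29 for FGFR1, 13 to 20 for PIK3CA, 18 to 22 for GFP against HCRED, 22 to 26 for CSC, 17 to 22 for BaP and 16 to 19 for NNK. For NRG1 it gave 1 to 3, with 1 without HCRED CSC replicate 1, HCRED NNK replicate 1 or HCRED NNK replicate 2, and LGALS3BP was past the threshold in 20 of those 24 fits. In PIK3CA, MX1 was past it in 20, IRF1 in 23 and IFIH1 in 11 of 24. No share of all genes was taken in the fits with 1 sample left out.

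Directions turned only for small or single-stratum values, and the cause was not tested. For NRG1, IFIT1 was 0.56 under CSC alone, 0.31 under NNK alone and −0.192 to 0.0094 with 1 sample left out, HERC5 was −0.017 under NNK alone, and LGALS3BP was 0.025 under BaP alone. For PIK3CA, IFIT1 was −0.044 by edgeR, −0.031 by DESeq2, −0.23 under DMSO alone, −0.17 under BaP alone and −0.11 to 0.147 with 1 sample left out, and IRF1 was −0.090 under CSC alone. For BaP, IFIT1 was 0.45 in NRF2 and 0.57 in FGFR1, MX1 was −0.39 in HCRED and IRF1 was −0.32 in NRF2. For NNK, IFI6 was −0.47 in NRF2 and −0.18 in PIK3CA, IFI44 was 0.38 in GFP and 0.17 in FGFR1, and IFIH1 was 0.18 in CDKN2A.

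The samples share a replicate number but no stated pairing. The mean correlation of same-numbered samples was 0.00023 to 0.030 over the comparisons, with single pairs from −0.26 to 0.176, and above that of differently numbered samples in each comparison. As a hint from the data, 20 of 24 samples were closest to their own number for CDKN2A and for NRF2, 17 of 24 for FAT1 and 10 of 24 for NRG1 and for PIK3CA. With the replicate number as a block IFIH1 in PIK3CA was no longer called (0.32, limma-voom adjusted p = 0.0504), 18 members were called for PIK3CA, 21 for GFP against HCRED and 24 for CSC, and the other counts were 26 for FAT1, 25 for CDKN2A, 9 for NRF2, 28 for FGFR1, 2 for NRG1, 21 for BaP, 17 for NNK and 0 for each interaction. Among the other named values no call was lost. The share of all genes called was not taken with this block. Leaving out the libraries with NRG1 reads, an alternative chosen after the data were seen, moved no count by more than 1.5 times. Depth limits the members with few reads, since 3 counts stand for up to 10.4 CPM in the shallowest library.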

Other observations

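ISG15, UBE2L6 and IFI35 had mean counts below 10 over all samples and are described here after their values were seen. ISG15 itself, the ubiquitin-like modifier, was at 0, 2.74 and 7.56 CPM in the GFP line (lowest, median and highest of 12 samples), at 2.82, 11.8 and 21.9 CPM in FAT1 and at 3.27, 6.53 and 26.5 CPM in CDKN2A. By limma-voom it rose by 1.88 (SE 0.29) in FAT1 and by 1.33 (SE 0.29) in CDKN2A, with overlapping samples in both. In the HCRED line it was at 3.02, 5.86 and 16.1 CPM, and it rose by 1.33 (SE 0.22) in FGFR1, at 9.83, 15.2 and 25.7 CPM, and by 0.85 (SE 0.22) in PIK3CA. GFP was lower than HCRED by 0.99 (SE 0.30).

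UBE2L6, the conjugating enzyme of ISG15, was at 0, 0.956 and 2.91 CPM in GFP and at 2.89, 5.89 and 23.4 CPM in HCRED, a difference of −2.43 (SE 0.36) between the controls, beside rises over GFP of 2.47 (SE 0.41) in FAT1 and 2.40 (SE 0.38) in CDKN2A. IFI35, a member of the IFI group, had −1.45 (SE 0.31) between the controls and rises over GFP of 1.41 (SE 0.33) in FAT1 and 1.75 (SE 0.30) in CDKN2A. Under BaP, ISG15 went from 0, 6.15 and 12.5 to 2.03, 11.4 and 26.5 CPM (0.98, SE 0.16), and the difference was 0.50 and still called once the trend with GC content and exon length was removed. Under CSC it rose by 0.47 (SE 0.16), which was 0.02 and not called after that correction.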
